A study of Solanum lycopersicum with 26 samples.

Results

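Embryo was compared with endosperm in mature seeds of tomato, cultivar Moneymaker, from fruits that ripened under heat and high light (HT_HL). The comparison was defined by the count columns of the 3 HT_HL embryo libraries and the 3 HT_HL endosperm libraries, 6 of the 26 libraries in the series. HT_HL fruits were detached at the breaker stage, 63 days after flowering, and held at 32 °C by day and 26 °C by night under 300 µE of light with a 16 h photoperiod. Seeds were taken at 70 days after flowering. The 4 embryo and 3 endosperm libraries of ST_HL, which had the same light and photoperiod at 23 °C by day and 20 °C by night, were used to ask whether the tissue difference itself differed with temperature. Both tissues in both conditions came from the same cultivar, and each replicate was hand-dissected from 10 seeds of 2 fruits. RNA was extracted with kit settings that differed between embryo and endosperm, and that difference and the tissue cannot be told apart.

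In the tomato seed the endosperm is a living tissue that surrounds the embryo, stores oil and protein, and must weaken before the radicle can emerge. Molecular chaperones bind unfolded proteins and help them to fold or refold. Many of them are induced by heat, and others, such as the plastid chaperonins that assemble RuBisCo, are made in unstressed cells. A mature seed also holds transcripts that were stored during maturation, among them those of protective sugars, oil-body proteins and abscisic acid responses. The paper describes drying only for the seeds of its vigor tests, and tissues for RNA were frozen directly after dissection.

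The 6 libraries held 20450644 to 21111227 counts each. At least 10 counts were found for 17092 to 17472 gene IDs in the embryo libraries and 17811 to 18189 in the endosperm libraries, and the 10 most abundant genes took 7.96 to 8.39% of the counts in embryo and 9.67 to 10.9% in endosperm. Every pair of libraries within a tissue differed by more than counting noise, with a chi-square of 11.9 to 58.7 per degree of freedom. The tissue labels were checked against the 20 libraries of the other conditions. The HT_HL embryo libraries correlated with other embryo libraries at r = 0.906 to 0.982 and with other endosperm libraries at 0.785 to 0.837, while the HT_HL endosperm libraries correlated with other embryo libraries at 0.744 to 0.835 and with other endosperm libraries at 0.938 to 0.981. Of 14 genes that were at 10 CPM (a gene's count relative to the scaled total of its library) or more in each of the other embryo libraries and under 1 CPM in each of the other endosperm libraries, all 14 were higher in every HT_HL embryo library than in any HT_HL endosperm library. The reverse held for all 113 genes selected in the opposite way. Their summed level was 12.5 to 16.1 CPM in embryo and 3135 to 3231 CPM in endosperm. The part of RNA carried over between the tissues in single results was not tested.

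Embryo and endosperm differed at 32.1% of the genes measured. Of 18525 genes tested, 2459 (13.3%) were higher in embryo and 3488 (18.8%) were lower, by edgeR's quasi-likelihood test with an adjusted p under 0.05 and a log2 fold change beyond 1. These genes are called DEGs below. In 5892 of the 5947 DEGs the embryo and endosperm values did not overlap, so a lack of overlap does not set a DEG apart from others. The median log2 fold change over all genes was 0.00 and the median absolute value was 0.60. By edgeR's estimates large differences were more often on the endosperm side, with 206 DEGs more than 64-fold higher in embryo and 822 more than 64-fold lower. No embryo library held a count for 328 of the lower genes, and no endosperm library held one for 64 of the higher genes. For such genes the counts give only a lower bound, so some of the 206 and 822 are not shown to exceed 64-fold. Solyc01g016414.1.1, with no count in embryo, was estimated at 116-fold lower, but its bound was 5.23-fold with 3 counts per library as the floor. Libraries were scaled by the trimmed mean of M values (TMM). Without that scaling the median over all genes moved to 0.32 and the split turned to 3659 higher and 2921 lower, so that directions are given here relative to the TMM scale. In bulk tissue, fewer cells of a type and less RNA per cell cannot be told apart.

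The genes annotated to stress and protection were called in both directions at shares near those of all genes. The 14 lists drawn from the annotation held 214 IDs, of which 133 passed the filter on low counts, and 19 of these (14.3%) were higher in embryo and 27 (20.3%) lower. The annotation at hand covers only the IDs of chromosome 0 and the first part of chromosome 1 for the stress terms taken from GO, so most of these lists are a sample of the responses they are named for. Their median log2 fold change was 0.03, and their median absolute value was 0.61.

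**Figure D1:**
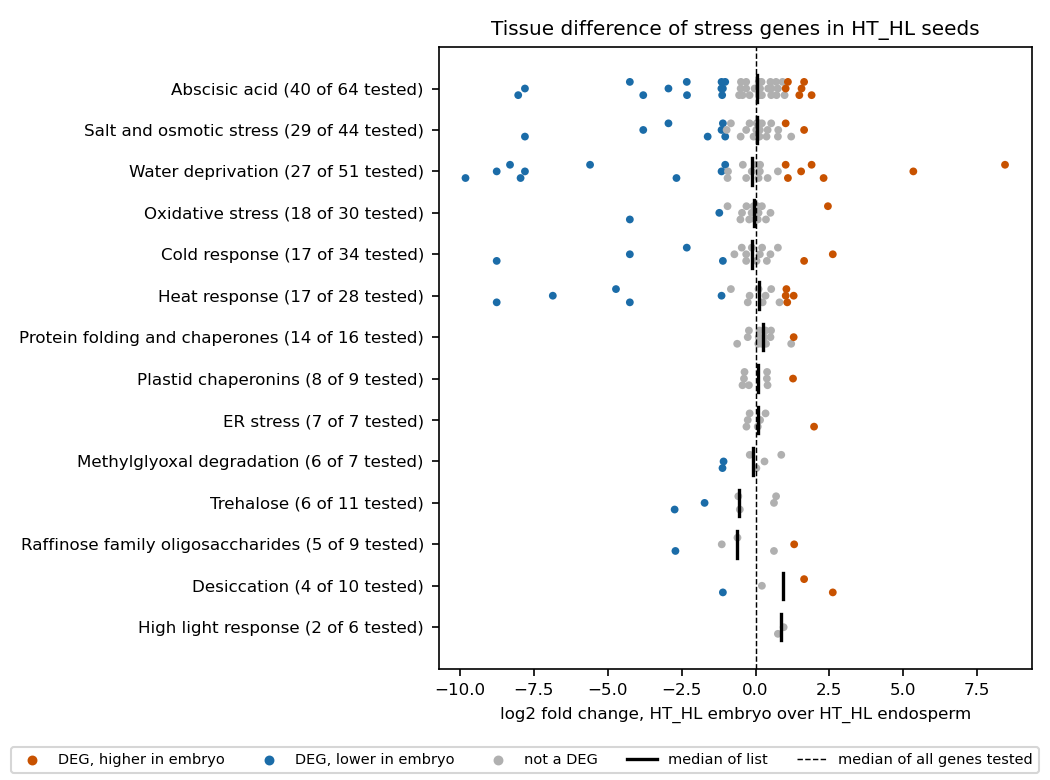
Log2 fold change of HT_HL embryo over HT_HL endosperm for each tested gene of the 14 stress lists, with embryo-higher DEGs in orange, embryo-lower DEGs in blue and other genes in grey; short black lines are list medians and the dashed line is the median over all genes tested. Heat-response DEGs lie on both sides (4 higher, 5 lower), while the chaperone and chaperonin lists hold 1 DEG each, both higher in embryo.

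Heat-response genes were called in both directions. Of 28 annotated genes, 17 were tested, 4 were higher in embryo, 5 were lower and 8 did not pass, and the median log2 fold change was 0.10. Over all genes 13.3% were higher and 18.8% lower, so the counts of this small list lie within a few genes of the background. The 11 that were not tested reached at most 0.499 CPM in any of the 6 libraries. The 4 genes on the embryo side and Solyc01g065980.4.1 on the endosperm side differed about 2-fold, and the other 4 on the endosperm side had a larger fold change or no count in the embryo.

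Solyc01g065710.3.1, annotated both to the heat response and as a protein folding chaperone, stood at 7.62, 9.69 and 8.03 CPM in the embryo libraries, against 4.04, 3.39 and 2.84 CPM in the endosperm libraries. All embryo values lay above all endosperm values, and the log2 fold change was 1.29 ± 0.21 (SE; adjusted p = 0.00132, edgeR, n = 3 each). The log2 fold change of Solyc01g065710.3.1 in ST_HL was 1.47, and the difference between conditions did not pass (adjusted p = 0.796, edgeR). Another 3 genes annotated to heat acclimation, the process by which mild warmth prepares a plant for severe heat, were near the fold limit. Solyc01g066880.3.1 was at 220, 138 and 197 CPM in embryo and 94.8, 70.2 and 106 CPM in endosperm, with a log2 fold change of 1.02 ± 0.21. Solyc01g011100.2.1 was at 68.6, 57.4 and 103 CPM in embryo and 32.4, 38.6 and 39.3 CPM in endosperm, with a log2 fold change of 1.04 ± 0.21. Solyc01g011090.4.1, whose ID stands next to it, averaged 9.80 ± 1.52 CPM in embryo and 4.63 ± 0.79 CPM in endosperm (SD, n = 3 each). The groups did not overlap for any of these 3 genes. Their calls depended on single libraries, and without HT_HL embryo replicate 3 the number of heat-response genes called higher was 1, Solyc01g065710.3.1.

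On the endosperm side, Solyc01g010490.4.1, a heat-acclimation gene, was at 1.76, 2.16 and 2.46 CPM in embryo and 55.5, 64.8 and 47.2 CPM in endosperm, a log2 fold change of -4.72 ± 0.20 (SE; adjusted p = 1.2e-06, edgeR). Solyc01g005370.3.1, which carries terms for heat, cold, hydrogen peroxide and abscisic acid, was at 2.39, 3.08 and 2.10 CPM in embryo and 53.0, 40.9 and 50.3 CPM in endosperm, a log2 fold change of -4.26 ± 0.20. Both were low in every embryo library and more than 10-fold above that in every endosperm library. Both also differed in ST_HL, with log2 fold changes of -4.535 for Solyc01g010490.4.1 and -3.823 for Solyc01g005370.3.1. The difference between conditions did not pass for either (adjusted p = 0.774 and 0.589, edgeR). Solyc01g009440.3.1, annotated to heat, cold, water deprivation and embryo development, had no count in the embryo libraries and 3.69, 2.31 and 1.48 CPM in the endosperm libraries, which is at least 19.5-fold lower in embryo when 3 counts per library are taken as the floor. Solyc01g016414.1.1 likewise had no count in embryo and 0.666 ± 0.111 CPM in endosperm, at least 5.23-fold lower.

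The remaining lower gene was Solyc01g065980.4.1, annotated to heat acclimation, salt stress, water deprivation, abscisic acid and defence against fungi. It had 196, 187 and 205 CPM in embryo and 440, 395 and 463 CPM in endosperm, and its log2 fold change was -1.15 ± 0.11 (adjusted p = 7.24e-05, edgeR). The groups did not overlap. Without TMM scaling its log2 fold change was -0.84, under the fold limit. Among members that did not pass, Solyc01g005340.3.1 had 8.28 ± 0.87 CPM in embryo and 14.7 ± 2.41 CPM in endosperm, a log2 fold change of -0.83 ± 0.18. Solyc01g009280.4.1, annotated to the response to unfolded protein, had 47.9 ± 5.67 CPM in embryo and 54.6 ± 8.27 CPM in endosperm, and its groups overlapped. Its log2 fold change was -0.20, or 0.11 without TMM scaling.

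**Figure D2:**
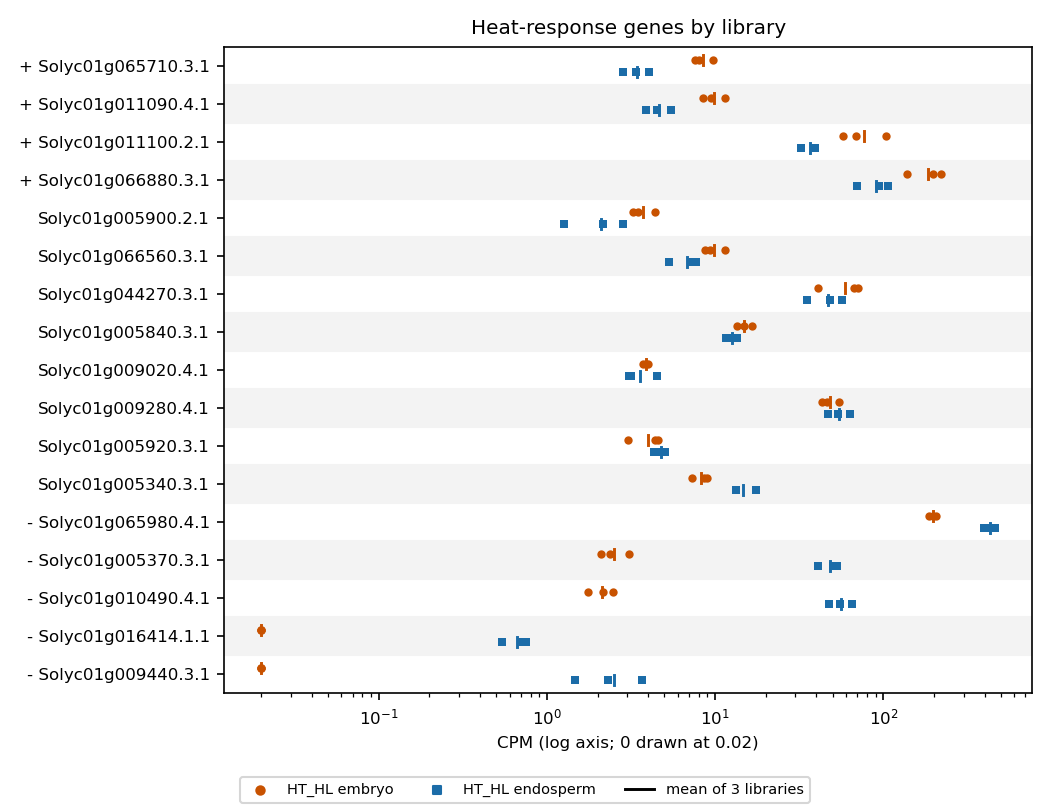
CPM of the 17 tested heat-response genes in each HT_HL library on a log axis, embryo as circles above endosperm squares, with the mean of 3 libraries as a bar and counts of 0 drawn at 0.02, ordered by log2 fold change; + marks DEGs higher in embryo and - DEGs lower in embryo. The 4 genes marked + sit about 2-fold apart, whereas Solyc01g005370.3.1 and Solyc01g010490.4.1 hold 2 to 3 CPM in embryo and 41 to 65 CPM in endosperm.

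The 14 tested genes annotated to protein folding and chaperones differed little between embryo and endosperm. This list covers only chromosome 0 and the first part of chromosome 1, so chaperone genes elsewhere in the genome were not in it. Of 16 annotated genes 14 were tested, and 1 was higher in embryo and 0 lower, where 32.1% of all genes were DEGs in either direction. Their median absolute log2 fold change was 0.32, against 0.60 over all genes. Without the fold limit 4 of the 14 had an adjusted p under 0.05, against 53.8% of all genes. The list mixes general folding factors with proteins known for other roles, including a pair of ATP synthase alpha subunits that carry a chaperone-binding term.

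The DEG was Solyc01g065710.3.1, described above. Solyc01g044270.3.1, annotated to unfolded-protein binding, refolding and the heat response, was at 70.3, 40.7 and 67.2 CPM in embryo and 48.1, 35.0 and 56.9 CPM in endosperm. The ranges overlapped, and the log2 fold change was 0.34 ± 0.24 (adjusted p = 0.269, edgeR). Solyc01g005820.4.1, an unfolded-protein binding protein with an oxidative-stress term, was at 176, 158 and 155 CPM in embryo and 113, 111 and 118 CPM in endosperm. These groups did not overlap and the adjusted p was 0.00331, yet the log2 fold change of 0.50 ± 0.10 lay under the fold limit. Solyc01g005600.4.1, a folding factor of the endoplasmic reticulum stress response, was at 65.0 ± 1.59 CPM in embryo and 77.4 ± 3.66 CPM in endosperm. Its log2 fold change was -0.26 ± 0.09, or 0.04 without TMM scaling.

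A misfolded-protein binding gene, Solyc01g050040.4.1, depended on how the replicates were treated. It was at 10.0, 3.40 and 13.8 CPM in embryo and 3.69, 1.57 and 6.45 CPM in endosperm. Replicate 2 was the lowest in both tissues. The log2 fold change was 1.21 ± 0.59 with an adjusted p of 0.118, and with the replicate number as a block it was 1.21 with an adjusted p of 0.00057 (edgeR in both), which raised the count of the list to 2. It also passed without HT_HL embryo replicate 2 (adjusted p = 0.0146, edgeR).

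The plastid chaperonins, ring-shaped complexes that fold RuBisCo subunits and other plastid proteins, differed by small amounts in opposite directions. Of 9 genes 8 were tested, 1 was higher in embryo by both thresholds (12.5%, against 13.3% of all genes) and 0 were lower. By the adjusted p alone 7 of the 8 differed, 4 on the embryo side and 3 on the endosperm side, where 25.8% of all genes were higher and 28% lower by that limit. The 1 gene of the 9 that was not tested reached at most 1.12 CPM.

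Within the CPN60 alpha subunit the 3 genes did not share a direction. Solyc06g075010.4.1 was at 21.8, 29.5 and 26.3 CPM in embryo and 9.13, 10.0 and 12.8 CPM in endosperm, a log2 fold change of 1.27 ± 0.18 (adjusted p = 0.000648, edgeR). Solyc11g069790.2.1 was at 1115, 1096 and 1354 CPM in embryo and 1433, 1463 and 1688 CPM in endosperm, a log2 fold change of -0.37 ± 0.13. The groups were separate for both genes, with the first higher in every embryo library and the second lower. Solyc02g068730.3.1 was at 147 ± 18.8 CPM in embryo and 112 ± 9.61 CPM in endosperm.

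The tested beta subunit genes had lower means in embryo. Solyc03g120850.4.1 was at 150, 157 and 181 CPM in embryo and 195, 217 and 245 CPM in endosperm, with a log2 fold change of -0.44 ± 0.13 (adjusted p = 0.0184, edgeR). Solyc01g028810.3.1 was at 1137, 1109 and 1369 CPM in embryo and 1297, 1369 and 1528 CPM in endosperm, and these ranges met. The pair of CPN20 co-chaperone genes went opposite ways by the same size. Solyc07g042250.3.1 was at 206 ± 9.12 CPM in embryo and 156 ± 12.3 CPM in endosperm, and Solyc12g009250.3.1 was at 118 ± 8.08 CPM in embryo and 153 ± 10.5 CPM in endosperm. All of these lay under the fold limit, apart from Solyc06g075010.4.1. Without TMM scaling the log2 fold changes of the 3 genes on the endosperm side were -0.06 for Solyc11g069790.2.1, -0.13 for Solyc03g120850.4.1 and -0.09 for Solyc12g009250.3.1. That of Solyc01g028810.3.1 was -0.23 with TMM scaling and turned to 0.08 without it.

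**Figure D3:**
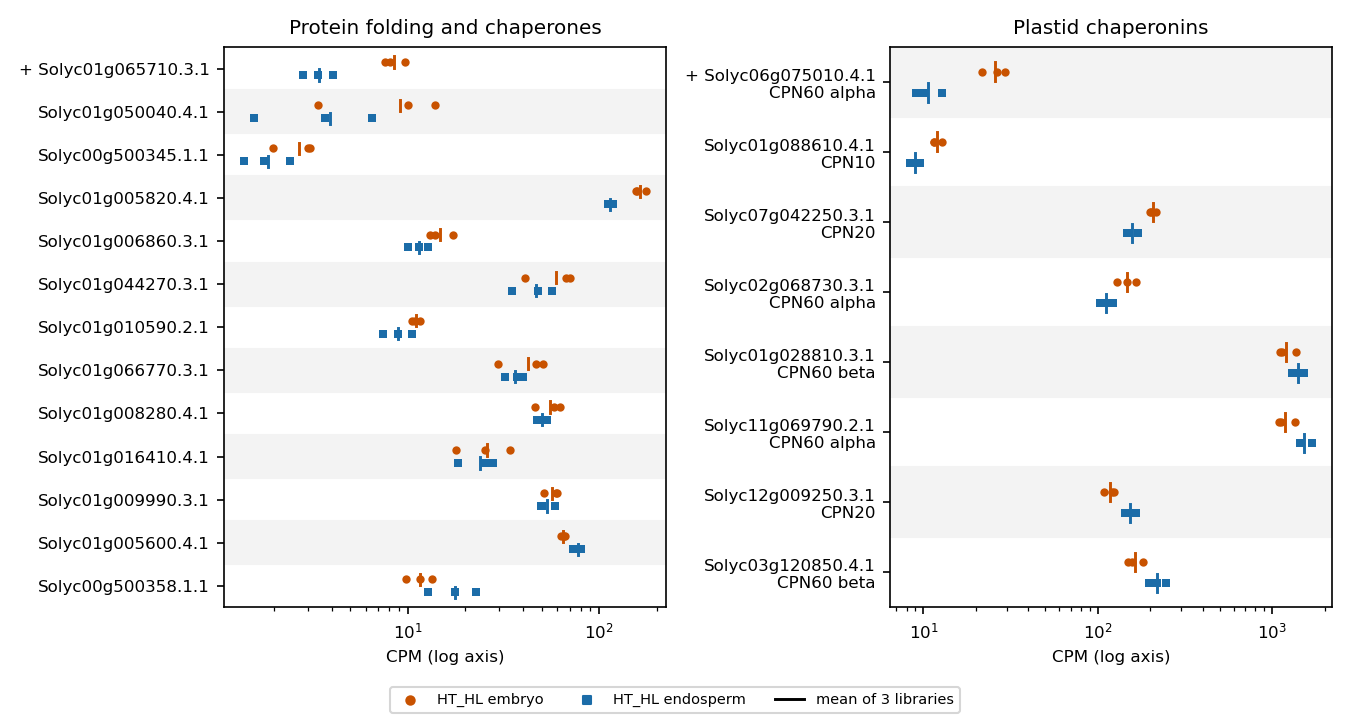
CPM of tested chaperone genes (left) and plastid chaperonin genes (right) in each HT_HL library on a log axis, embryo circles above endosperm squares and bars at the mean of 3 libraries; the CPN60 beta gene Solyc01g028810.3.1 belongs to both lists and is drawn once. The gene marked + in each panel passed both thresholds, Solyc01g065710.3.1 on the left and Solyc06g075010.4.1 on the right.

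The endoplasmic reticulum and oxidative stress lists each held 1 gene that was higher in embryo. In the first, 7 of 7 genes were tested and 1 was a DEG (14.3%, against 32.1% of all genes). This was Solyc01g010650.3.1, annotated to the unfolded-protein response of the endoplasmic reticulum, at 47.2, 42.9 and 64.0 CPM in embryo and 14.6, 11.7 and 12.5 CPM in endosperm, a log2 fold change of 1.98 ± 0.18 (adjusted p = 5.99e-05, edgeR). The other 6 ranged between log2 fold changes of -0.31 and 0.34. In the oxidative stress list 18 of 30 genes were tested. Of these 1 was higher (5.56%, against 13.3% of all genes) and 2 were lower (11.1%, against 18.8%). Solyc01g009470.2.1 was at 773, 635 and 1190 CPM in embryo and 127, 121 and 225 CPM in endosperm, a log2 fold change of 2.45 ± 0.31. Each embryo library held more than each endosperm library, and replicate 3 was the highest in both tissues. On the other side, Solyc01g005560.3.1 was at 15.4 ± 4.72 CPM in embryo and 35.7 ± 4.54 CPM in endosperm, and without TMM scaling it was under the fold limit at -0.91. Only 2 of 6 high-light genes were tested, and 0 passed, or 1 with the replicate block.

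Lists of water-related stress and cold held more genes lower in embryo than higher, as did all genes (18.8% lower and 13.3% higher). Water deprivation had 27 of 51 genes tested with 7 higher and 9 lower, abscisic acid 40 of 64 with 6 and 12, salt and osmotic stress 29 of 44 with 2 and 7 (3 and 8 with the replicate block), and cold response 17 of 34 with 2 and 4. The medians stayed between -0.13 and 0.04, against 0.00 over all genes. Without TMM scaling the abscisic acid list had 11 higher and 7 lower, and the salt list 5 and 4. Several genes sit in more than one of these lists.

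Solyc01g009860.3.1, annotated to abscisic acid, salt stress and embryo development, was at 17.9, 15.6 and 22.3 CPM in embryo and 246, 154 and 372 CPM in endosperm, a log2 fold change of -3.80 ± 0.32 (adjusted p = 4.41e-05, edgeR). Solyc01g058360.1.1, a water-deprivation gene, had no count in embryo and 5.89, 5.65 and 4.05 CPM in endosperm, at least 40.7-fold lower in embryo. In the opposite direction, Solyc01g009330.1.1 had 1.80, 2.68 and 1.55 CPM in embryo and no count in endosperm, at least 13.1-fold higher. Solyc01g008890.4.1, with terms for water deprivation, abscisic acid and wounding, was at 141 ± 12.1 CPM in embryo and 65.7 ± 5.80 CPM in endosperm. Members of the same list were thus without a count in one tissue or the other.

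The desiccation list had 4 of 10 genes tested, with 2 higher in embryo and 1 lower (50% and 25%, against 13.3% and 18.8% of all genes). A neighbouring pair of caleosin-type IDs, which carry identical terms for desiccation, cold, salt and embryo development, went opposite ways. Solyc01g005410.4.1 was at 23.2, 25.4 and 27.9 CPM in embryo and 9.63, 8.05 and 6.56 CPM in endosperm, a log2 fold change of 1.64 ± 0.17. Solyc01g005400.3.1 was at 54.0, 43.9 and 81.5 CPM in embryo and 141, 116 and 125 CPM in endosperm, a log2 fold change of -1.11 ± 0.22, which was under the fold limit without HT_HL embryo replicate 2 (-0.93) and without TMM scaling (-0.81). Neither pair of groups overlapped. Reads shared between such neighbouring copies are divided by estimation, so the split between them is uncertain.

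Sugars and detoxification showed single-gene differences. Raffinose family oligosaccharides, which protect drying seeds, start from galactinol synthase, and its gene Solyc01g079170.3.1 was at 77.7, 65.2 and 130 CPM in embryo and 37.9, 34.2 and 37.2 CPM in endosperm, a log2 fold change of 1.31 ± 0.24 (adjusted p = 0.00221, edgeR), or 0.95 without HT_HL embryo replicate 3. The galactinol-sucrose galactosyltransferase gene Solyc07g007930.3.1, which acts in the next step, was at 13.02, 66.4 and 4.61 CPM in embryo and 163, 258 and 127 CPM in endosperm. Its groups did not overlap, but embryo replicate 2 lay far above the other embryo libraries. The log2 fold change was -2.71 ± 0.83 with an adjusted p of 0.0253, and this rose above 0.05 when HT_HL embryo replicate 1, HT_HL endosperm replicate 1 or HT_HL endosperm replicate 2 was left out. Another galactinol synthase gene, Solyc01g100830.2.1, was at 123, 48.0 and 266 CPM in embryo and 216, 134 and 312 CPM in endosperm, and replicate 3 was the highest and replicate 2 the lowest in both tissues. It was not a DEG, but passed without HT_HL embryo replicate 3 at -1.38. In all, 5 of 9 genes of this list were tested, 1 was higher and 1 lower (20% each, against 13.3% and 18.8% of all genes).

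In trehalose metabolism 6 of 11 genes were tested. In embryo 0 were higher and 2 were lower (33.3%, against 18.8% of all genes), both trehalose-6-phosphate phosphatases. Solyc04g054930.3.1 was at 1.09, 2.68 and 0.912 CPM in embryo and 10.9, 11.2 and 9.24 CPM in endosperm, a log2 fold change of -2.74 ± 0.39. Solyc03g083960.3.1 was at 1.14 ± 0.27 CPM in embryo and 3.75 ± 1.12 CPM in endosperm. The synthase gene Solyc07g062140.3.1, which makes the phosphatase's substrate, had a log2 fold change of 0.70 ± 0.23 in the other direction and was not a DEG. Methylglyoxal, a toxic by-product of glycolysis, is removed by glyoxalases. Of 6 tested genes 2 were lower in embryo (33.3%, against 18.8% of all genes) and 0 higher. The glutathione-independent glyoxalase Solyc02g081400.3.1 was at 131, 132 and 151 CPM in embryo and 279, 272 and 342 CPM in endosperm, a log2 fold change of -1.12 ± 0.13. The lactoyl-glutathione lyase Solyc08g066850.3.1 was lower too, at 1.51 ± 0.27 CPM in embryo and 3.17 ± 0.25 CPM in endosperm, while another lyase gene, Solyc11g069040.3.1, had a log2 fold change of 0.87 ± 0.15. Without TMM scaling the log2 fold changes of the lower pair were -0.81 for Solyc02g081400.3.1 and -0.78 for Solyc08g066850.3.1, both under the fold limit, and without HT_HL embryo replicate 2 that of Solyc08g066850.3.1 was -0.96.

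Oleosins, caleosins and steroleosins coat the lipid droplets of seeds and keep them apart during drying. Of 27 genes 23 were tested, 3 were higher in embryo and 3 lower (13% each, against 13.3% and 18.8% of all genes), and the median log2 fold change was -0.33. The oleosin gene Solyc02g086490.3.1 was at 51.6, 71.3 and 94.7 CPM in embryo and 10.6, 12.9 and 10.9 CPM in endosperm, a log2 fold change of 2.64 ± 0.23 (adjusted p = 4.35e-05, edgeR). The oleosin gene Solyc12g010920.2.1 was at 464, 490 and 967 CPM in embryo and 1453, 1357 and 1579 CPM in endosperm, a log2 fold change of -1.20 ± 0.27, and Solyc06g069260.1.1 was at 48.4 ± 6.95 CPM in embryo and 106 ± 18.0 CPM in endosperm. The tissues did not overlap for any of the 3. Without TMM scaling the lower pair was under the fold limit, at -0.91 for Solyc12g010920.2.1 and -0.83 for Solyc06g069260.1.1. The steroleosin gene Solyc03g097440.3.1, at 147 ± 44.6 CPM in embryo and 71.8 ± 6.07 CPM in endosperm, had a log2 fold change of 1.02 ± 0.20 and was under the fold limit with the replicate block (0.99) and without HT_HL embryo replicate 3 (0.74) or HT_HL endosperm replicate 3 (0.95).

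Of the 49 lists, the lowest median was that of fatty acid elongation, the chain of reactions that makes very-long-chain fatty acids for waxes, cuticles and storage lipids. Of 29 genes 17 were tested. In embryo 11 were lower (64.7%, against 18.8% of all genes) and 1 was higher (5.88%, against 13.3%). The median log2 fold change was -2.26. The 3-ketoacyl-CoA synthase (KCS) gene Solyc12g056720.2.1 was at 0.126, 0.0801 and 0.0456 CPM in embryo and 87.6, 85.0 and 56.7 CPM in endosperm, a log2 fold change of -9.73 ± 0.33 (adjusted p = 4.87e-07, edgeR). The KCS gene Solyc03g005320.3.1 was at 5.32, 19.6 and 1.87 CPM in embryo and 313, 382 and 230 CPM in endosperm, and Solyc10g009240.3.1 had 0.0838 CPM in embryo replicate 1, none in the others, and 15.3, 15.2 and 13.2 CPM in endosperm. The single KCS gene on the other side, Solyc09g065780.3.1, was at 5.44 ± 0.96 CPM in embryo and 2.08 ± 0.42 CPM in endosperm. Genes for the later steps of the same chain, picked after their values were seen, were lower in embryo as well. The 3-ketoacyl-CoA reductase Solyc02g093640.3.1 was at 5.03 ± 0.98 CPM in embryo and 24.2 ± 4.10 CPM in endosperm, the dehydratase Solyc04g014370.4.1 at 9.02 ± 2.51 CPM in embryo and 30.96 ± 10.3 CPM in endosperm, and the enoyl-CoA reductase Solyc05g054490.3.1 at 11.4 ± 3.94 CPM in embryo and 54.4 ± 9.28 CPM in endosperm.

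Seeds break fatty acids down in peroxisomes and pass the carbon through the glyoxylate cycle to gluconeogenesis. Of the 15 genes of the glyoxylate cycle and gluconeogenesis, all were tested, 7 were lower in embryo (46.7%, against 18.8% of all genes) and 0 higher. Isocitrate lyase, the entry enzyme of the glyoxylate cycle (Solyc07g052480.3.1), was at 1457, 1217 and 1568 CPM in embryo and 7360, 6388 and 7339 CPM in endosperm, a log2 fold change of -2.33 ± 0.15 (adjusted p = 1.01e-05, edgeR). Aconitase Solyc12g005860.2.1 was at 394 ± 14.9 CPM in embryo and 1415 ± 51.6 CPM in endosperm, and the fructose-1,6-bisphosphatase Solyc04g071340.5.1 at 22.5 ± 8.64 CPM in embryo and 114 ± 11.9 CPM in endosperm. A phosphoenolpyruvate carboxykinase and a malate synthase, named after their values were seen, were lower too, the carboxykinase (Solyc04g076880.3.1) at 168 ± 34.9 CPM in embryo and 742 ± 26.3 CPM in endosperm and malate synthase (Solyc03g111140.3.1) at 1047 ± 292 CPM in embryo and 2765 ± 917 CPM in endosperm. Fatty acid degradation had 24 of 31 genes tested, with 9 lower (37.5%, against 18.8% of all genes) and 1 higher (4.17%, against 13.3%). The higher one was the dodecenoyl-CoA isomerase gene Solyc01g091520.3.1, at 25.3, 26.9 and 27.9 CPM in embryo and 6.78, 5.84 and 7.76 CPM in endosperm.

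**Figure D4:**
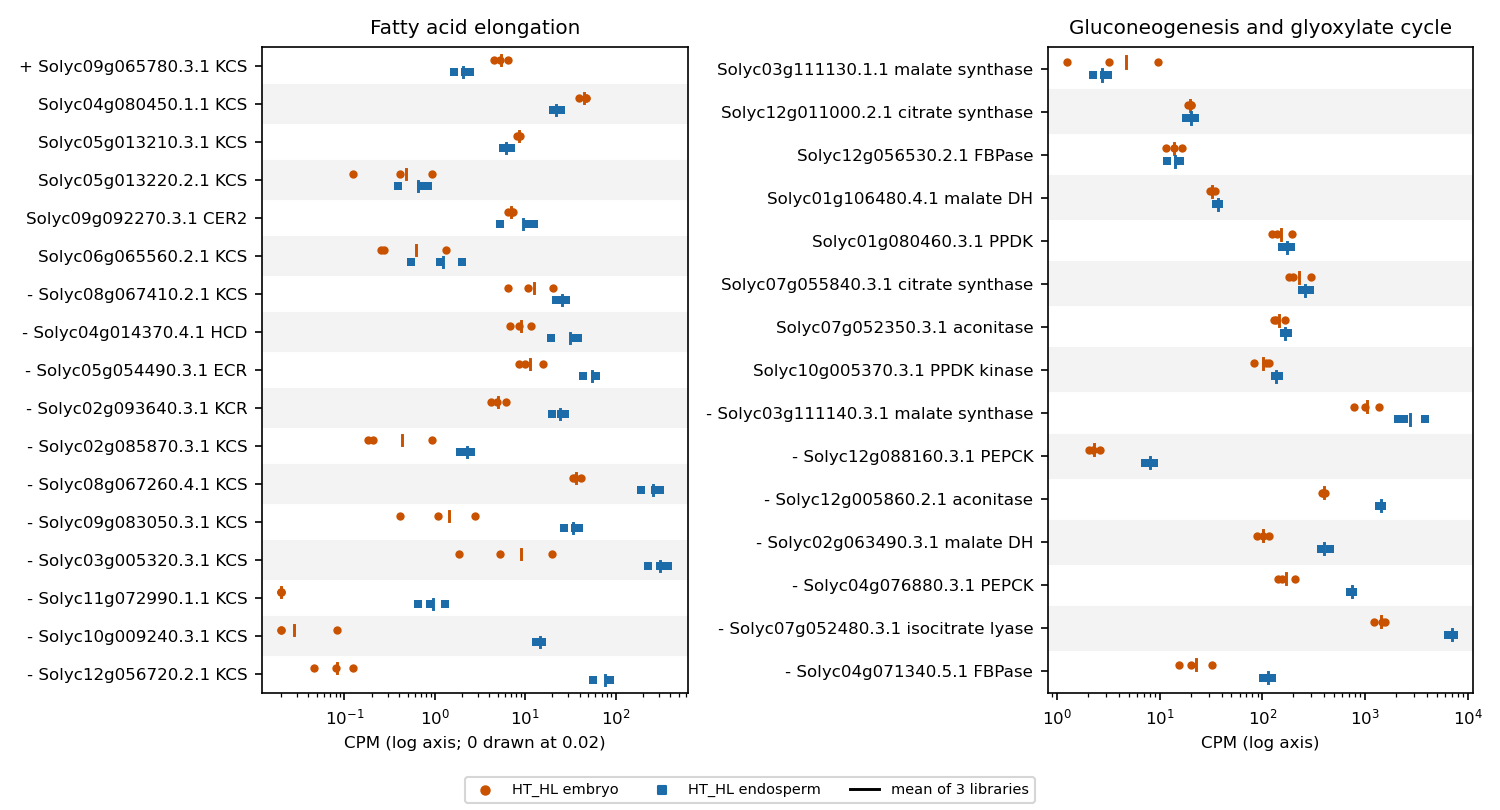
CPM of tested genes of fatty acid elongation (left) and of gluconeogenesis and the glyoxylate cycle (right) in each HT_HL library on a log axis, embryo circles above endosperm squares, bars at the mean of 3 libraries, and counts of 0 drawn at 0.02. Elongation genes marked - number 11 and the carbon genes marked - number 7, and in each of them every endosperm library lies above every embryo library. The tissues did not overlap in 5892 of all 5947 DEGs.

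Lipases and lipid synthesis held genes on both sides. The lipase gene Solyc02g094040.3.1 was at 56.2, 53.3 and 46.2 CPM in embryo and 0.549, 0.786 and 0.492 CPM in endosperm, a log2 fold change of 6.38 ± 0.21 (adjusted p = 4.19e-07, edgeR). The monoacylglycerol lipase gene Solyc04g010250.3.1 was at 0.712, 0.441 and 0.456 CPM in embryo and 68.0, 76.1 and 42.8 CPM in endosperm, a log2 fold change of -6.85 ± 0.32. Each was under 1 CPM in every library of one tissue. Among 9 tested lipases 4 were higher in embryo (44.4%, against 13.3% of all genes) and 2 lower (22.2%, against 18.8%). Both of the lower ones were monoacylglycerol lipases. The acyltransferase DGAT1, which completes triacylglycerol (Solyc07g040740.3.1), was at 12.7 ± 1.76 CPM in embryo and 3.94 ± 0.85 CPM in endosperm. A fatty acid desaturase, Solyc01g006430.3.1, was at 827 ± 167 CPM in embryo and 214 ± 37.7 CPM in endosperm. The monomeric acetyl-CoA carboxylase, which makes malonyl-CoA (Solyc12g056940.2.1), was at 40.7 ± 3.55 CPM in embryo and 325 ± 33.0 CPM in endosperm. By list, plastidial fatty acid synthesis had 24 of 28 genes tested, with 1 higher in embryo (4.17%) and 9 lower (37.5%). Fatty acid desaturation had 11 of 29 tested, with 2 higher (18.2%) and 3 lower (27.3%). Triacylglycerol synthesis had 3 of 3 tested, with 1 higher and 0 lower. Over all genes 13.3% were higher and 18.8% lower.

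Further large fold changes among annotated genes lay in other pathways. The GABA transaminase gene Solyc12g006470.2.1 was at 15.9, 29.2 and 13.6 CPM in embryo and 0.0499, 0.196 and 0 CPM in endosperm, a log2 fold change of 7.74 ± 0.61, and the neighbouring transaminase gene Solyc12g006450.2.1 was at 12.9 ± 1.49 CPM in embryo and 1.03 ± 0.30 CPM in endosperm. The cell-wall gene Solyc01g059940.2.1 had no count in embryo and 17.9, 10.6 and 20.8 CPM in endosperm, at least 129-fold lower in embryo. An adjacent pair of branched-chain keto acid dehydrogenase E1 alpha genes, Solyc06g059840.4.1 and Solyc06g059850.2.1, had log2 fold changes of -6.62 ± 0.62 and -5.79 ± 0.38. Genes without annotation here included Solyc11g006650.3.1, at 11.3, 8.33 and 22.9 CPM in embryo and at most 0.0547 CPM in endosperm, and Solyc07g005100.4.1, with no count in embryo and 21.0, 26.6 and 19.6 CPM in endosperm, at least 175-fold lower in embryo.

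The tissue difference in HT_HL was then set against that in ST_HL, to ask which genes separated embryo and endosperm differently when fruits ripened under heat. In a separate fit of the 7 ST_HL libraries 2629 genes (13.6%) were higher in embryo and 2792 (14.5%) lower. Of 18220 genes tested in both conditions, 1795 were higher in embryo in both, which is 74.3% of the higher genes of HT_HL and 75.7% of those of ST_HL. The 2310 lower in both made up 69.8% of the lower genes of HT_HL and 88.9% of those of ST_HL. Opposite calls were found for 4 genes, none annotated in the lists and named after their values were seen. They were Solyc01g058003.1.1, Solyc02g069050.1.1, Solyc09g018280.1.1 and Solyc12g013560.2.1, and the difference itself passed the test for the last of them (adjusted p = 0.0376, edgeR). In ST_HL the heat-response list had 2 higher and 4 lower of 16 tested, the chaperone list 1 and 0 of 14, and the plastid chaperonins 2 and 0 of 9. Fatty acid elongation had 2 and 7 of 17 there, gluconeogenesis and the glyoxylate cycle 0 and 6 of 15, and fatty acid degradation 1 and 5 of 23. The elongation, glyoxylate and degradation lists held 0 genes that passed the test of the difference between conditions.

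In ST_HL embryo, replicates 2 and 3 stood apart from replicates 1 and 4. At least 10 counts were found for 18972 and 18957 gene IDs in replicates 2 and 3, against 17368 and 17494 in replicates 1 and 4. The ST_HL calls above include this spread. A gene called in HT_HL but not in ST_HL is therefore not shown to differ with temperature. The lipid-droplet factor SEIPIN (Solyc07g062230.4.1) had 49.0 and 67.8 CPM in ST_HL embryo replicates 2 and 3. It had 0.0948 and 0.0905 CPM in ST_HL embryo replicates 1 and 4, and no count in HT_HL. The test of the difference itself, over 13 libraries and 19978 genes, found 22 genes (0.11%) with a larger embryo excess in HT_HL and 32 (0.16%) with a smaller one. With the replicate block these counts were 73 and 141, and they were 2 and 1 without HT_HL embryo replicate 1, and to 13 and 28 without ST_HL embryo replicates 2 and 3. Of 138 stress-list genes in this fit 2 passed, and both were heat-response genes. Protein folding genes (14), plastid chaperonins (9) and endoplasmic reticulum stress genes (7) held 0 such genes.

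Solyc01g065980.4.1 was at 196, 187 and 205 CPM in HT_HL embryo and 440, 395 and 463 CPM in HT_HL endosperm. In ST_HL it was at 104, 76.3, 64.2 and 103 CPM in embryo and 409, 649 and 471 CPM in endosperm. Its log2 fold change of embryo over endosperm was -1.15 in HT_HL and -2.58 in ST_HL, a difference of 1.46 ± 0.25 (SE; adjusted p = 0.0406, edgeR). Embryo values were higher in every HT_HL library than in any ST_HL library, whereas the endosperm ranges of the conditions overlapped.

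Solyc01g066560.3.1, annotated to heat, osmotic stress and abscisic acid, was at 11.4, 9.29 and 8.75 CPM in HT_HL embryo and 7.28, 5.30 and 7.71 CPM in HT_HL endosperm. In ST_HL it was at 4.79, 3.87, 5.51 and 5.02 CPM in embryo and 10.2, 8.12 and 9.54 CPM in endosperm. The mean was higher in embryo in HT_HL and lower in embryo in ST_HL, with a difference of 1.54 ± 0.27 (adjusted p = 0.0406, edgeR). Both calls were near the limit: leaving out 1 library at a time gave adjusted p of 0.04 to 0.137 for Solyc01g065980.4.1 and 0.0412 to 0.143 for Solyc01g066560.3.1, and ended the call in 11 of 13 such fits for each. Without ST_HL embryo replicates 2 and 3 the adjusted p was 0.0515 for both.

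The call of the starch synthase SSIII gene Solyc02g080570.3.1, which lengthens the glucan chains of starch, was lost in 3 of 13 such fits. It was at 110, 106 and 107 CPM in HT_HL embryo and 25.3, 30.7 and 27.4 CPM in HT_HL endosperm, and at 68.8, 71.8, 74.9 and 72.3 CPM in ST_HL embryo and 45.2, 35.5 and 39.6 CPM in ST_HL endosperm. Embryo values were higher and endosperm values lower in HT_HL than in ST_HL without overlap, and the difference was 1.15 ± 0.15 (adjusted p = 0.0138, edgeR). The ndhA splicing factor Solyc02g068760.4.1, which acts on a chloroplast transcript, was at 15.8 ± 3.39 CPM in HT_HL embryo and 1.36 ± 0.36 CPM in HT_HL endosperm, and at 22.7 ± 2.27 CPM in ST_HL embryo and 5.29 ± 0.84 CPM in ST_HL endosperm, a difference of 1.48 ± 0.28 that lost its call in 12 of 13 such fits.

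Among genes without annotation here, Solyc08g078870.3.1 was at 174, 167 and 166 CPM in HT_HL embryo and 1.70, 1.57 and 2.62 CPM in HT_HL endosperm, and at 46.1, 45.4, 45.2 and 45.1 CPM in ST_HL embryo and 4.17, 2.57 and 1.48 CPM in ST_HL endosperm, a difference of 2.42 ± 0.37 that lost its call in 5 of 13 such fits. In the opposite direction, Solyc09g091600.4.1 was at 0.754, 0.961 and 0.502 CPM in HT_HL embryo and 13.5, 22.3 and 6.07 CPM in HT_HL endosperm, and at 15.9, 13.7, 15.4 and 23.9 CPM in ST_HL embryo and 15.6, 13.2 and 13.9 CPM in ST_HL endosperm, a difference of -4.45 ± 0.55 that lost its call in 2 of 13 such fits. For this gene only the HT_HL embryo libraries lay apart from the rest of the 13.

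**Figure D5:**
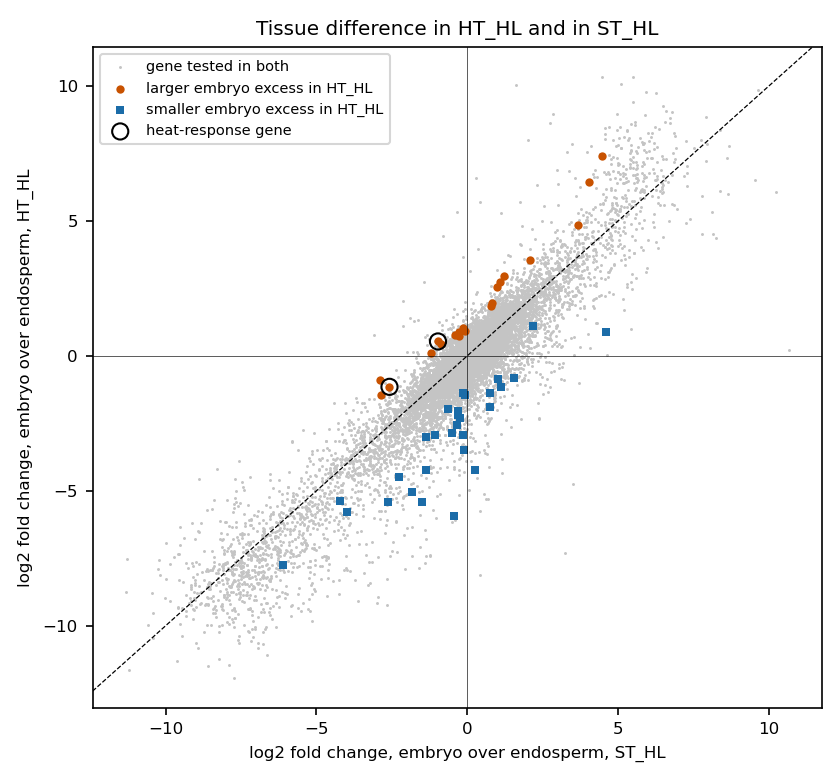
Log2 fold change of embryo over endosperm in HT_HL against that in ST_HL for 18220 genes tested in both (grey), with genes whose difference passed the test in orange (21 larger in HT_HL) and blue (29 smaller) and the pair of heat-response genes ringed; the dashed line marks equal differences. The points follow the line, and the marked genes lie off it on either side.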

How the data were processed

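mRNA was sequenced on a BGISEQ-500, and the authors quantified reads with Salmon 0.14.1 against the ITAG4.0 transcripts of build SL4.0. The deposited table holds expected counts, that is estimated counts per gene, for 33976 IDs and 26 libraries. Of its values 10.5% were not whole, and they were rounded. Gene names were not matched to these IDs, and no sequences are shown. CPM were computed on TMM-scaled library sizes of all 26 libraries, with no correction for gene length, so that levels were compared within a gene only. A library's floor of 3 counts was 0.12 to 0.164 CPM.

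Embryo was tested against endosperm in the 6 HT_HL libraries with edgeR 4.0.16 (R 4.3.3, quasi-likelihood test, TMM scaling, filterByExpr at min.count 10 and min.total.count 15), and the tissue difference in HT_HL minus that in ST_HL in 13 libraries. DEGs had a Benjamini-Hochberg adjusted p under 0.05 over all genes tested and an absolute log2 fold change above 1. DESeq2 1.42.0, limma 3.58.1 and other settings served as alternatives. On simulated data with 200 genes changed 4-fold, 92.5% were recovered for the tissue comparison with 11 false calls over 18188 genes, and 57% for the difference of conditions with 4 over 19534. The changed genes went up and down in equal numbers and all others were unchanged. In the data 32.1% of genes were DEGs between tissues, so the simulation gives no rate of false calls under such a shift.

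Both tissues carry the same replicate numbers in the labels. Deviations from the group means were correlated between same-numbered embryo and endosperm libraries over 21090 genes. The correlations were 0.132 to 0.347 in HT_HL and 0.104 to 0.437 in ST_HL, each above 0.1. On this the numbers were taken to pair the samples, but only in the alternative fits with the replicate block. The main tests left the pairing out. For the tissue comparison in HT_HL the block gave 2502 higher and 3615 lower genes, against 2459 and 3488 in the main test. For the difference of conditions it gave 73 larger and 141 smaller, against 22 and 32, so those counts depend on the pairing. Each HT_HL library correlated best with its own number. In ST_HL some differently numbered libraries correlated as well, embryo replicate 3 with endosperm replicate 2 at 0.332 (0.104 with its own number) and embryo replicate 4, which has no numbered partner, with endosperm replicate 1 at 0.377, so the pairing is less certain there. Whether replicates came from separate plants was not given in the sources used here, and p-values measure the spread between these samples only.

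The 49 gene lists came from the GO terms (chromosome 0 and part of chromosome 1) and MapMan bins (photosynthesis, respiration, carbohydrate, amino acid and lipid metabolism) of the parts of the study's annotation at hand, and 846 of their 1392 IDs were tested. The members and lists were chosen with earlier results of these data known. Genes were named by rule: members of the heat, chaperone, chaperonin, raffinose, desiccation, oil-body, trehalose and methylglyoxal lists, the 10 largest and 10 smallest fold changes among annotated non-overlapping genes of at least 10 CPM, up to 2 per direction of every other list, 2 per direction of all genes, and the 4 annotated and 2 of all genes per direction that differed most between conditions. Counting limits cover counting error only.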

Additional observations from a re-analysis of the deposited data

Results flagged for a closer look

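The tissue difference itself differed between HT_HL and ST_HL, by edgeR's test of that difference over 13 libraries, for 22 genes with a larger embryo excess in HT_HL and 32 genes with a smaller one. The named genes among them had log2 differences of 1.46 for Solyc01g065980.4.1, 1.54 for Solyc01g066560.3.1, 1.48 for Solyc02g068760.4.1, 1.15 for Solyc02g080570.3.1, 2.97 for Solyc07g056320.4.1, 2.42 for Solyc08g078870.3.1, -5.44 for Solyc03g031620.3.1 and -4.45 for Solyc09g091600.4.1. The call of Solyc03g031620.3.1 was lost in 11 of 13 fits that left out 1 library (adjusted p up to 0.143, edgeR) and without ST_HL embryo replicates 2 and 3 (0.0572).

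In ST_HL embryo, replicate 3 lay far from the other 3 libraries for Solyc07g056320.4.1, at 28.4 CPM against 42.2, 44.1 and 43.6 CPM. The same 4 libraries were looked at for 8 genes, and chance alone marks about 1 such set of values in 20. The call of this gene's difference was lost in 12 of 13 fits that left out 1 library (adjusted p up to 0.137, edgeR), whether or not that was replicate 3, and without ST_HL embryo replicates 2 and 3 the difference was 2.89 with an adjusted p of 0.0587.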

How the results depend on the processing

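Relative to 2459 higher and 3488 lower genes in HT_HL embryo, the count higher without the fold limit was 4777, and all other alternatives stayed within 1.5 times, from 2184 to 3659 higher and from 2921 to 5185 lower. Leaving out 1 library gave 2324 to 2549 higher and 3407 to 4055 lower, and the replicate block 2502 and 3615. Of 85 named genes 66 were DEGs. None of these reversed in any of 16 alternatives, and 15 lost the call in at least 1. Of the 19 named genes that were not DEGs, 3 changed sign without TMM scaling. Counts of genes whose tissue difference changed with temperature were less stable. Against 22 larger and 32 smaller, DESeq2 gave 118 and 261, all 26 libraries 55 and 112, and the replicate block 73 and 141. No filter gave 14 larger, no fold limit 46 larger, and the fit without ST_HL embryo replicates 2 and 3 gave 13 larger. Leaving out 1 library gave 2 to 25 larger and 1 to 30 smaller, with the lowest counts without HT_HL embryo replicate 1. The cause was not tested. Depth limits genes near the floor of 3 counts per library.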

Other observations

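Starch synthesis, a list not described in the report, had 21 of 24 genes tested with 5 higher in HT_HL embryo and 1 lower, against 13.3% and 18.8% of all genes. The highest fold change was that of SSIII, and the beta-amylase gene Solyc01g067660.3.1, which degrades starch, went the other way at 5.21 ± 2.15 CPM in embryo and 43.1 ± 3.63 CPM in endosperm (SD, n = 3 each). In the photosystem II list 49 of 108 IDs were tested, 10 were higher and 7 lower (20.4% and 14.3%, against 13.3% and 18.8% of all genes). The summed level of the list was 404.5 to 442.3 CPM in embryo and 448.3 to 468.1 CPM in endosperm. The Calvin cycle list had 26 of 42 genes tested, 0 higher and 7 lower (26.9%, against 18.8% of all genes). Its summed level was 858.3 to 978.9 CPM in embryo and 1344 to 1408 CPM in endosperm. Of the tested genes of the mitochondrial respiratory chain 1 was higher and 7 were lower, and 93 did not pass. These were 0.99% higher and 6.93% lower, against 13.3% and 18.8% of all genes.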
